A study of Saccharomyces cerevisiae with 6 samples.

Results

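The genes described are 9 genes of arginine metabolism in budding yeast, out of 5449 genes tested. ARG1, ARG2, ARG3, ARG4, ARG7, ARG8 and CPA1 act in arginine synthesis, CAN1 in uptake and CAR1 in breakdown. They were taken by name, and each had 1 probe set in the platform annotation, so no choice between probe sets was needed. The arrays compared the nab2-1 mutant with the wild type, with 3 arrays for each strain. Per the labels, the wild type is W303-1A. The mutant is a W303-1A derivative in which the chromosomal NAB2 gene was replaced with HIS3 and the nab2-1 allele was supplied on a centromeric LEU2 plasmid. Cells of both strains grew exponentially in YPD, a rich medium that contains amino acids, at 30 °C. NAB2 encodes a nuclear protein that binds poly(A) tails and takes part in mRNA export. No label tells if the samples of a strain were separate cultures or clones. The p-values therefore cover the spread of these samples alone, and that spread may be technical.

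Yeast makes arginine from glutamate. The first steps take place in the mitochondrion, on acetylated intermediates, and give ornithine, which is exported to the cytosol. There ornithine is combined with carbamoyl phosphate to citrulline, which becomes argininosuccinate and then arginine. Arginine can instead be taken up through permeases of the plasma membrane or stored in the vacuole, and arginase and ornithine aminotransferase break it down toward proline and glutamate. In the presence of arginine the ArgR/Mcm1 complex, formed by Arg80, Arg81 and Mcm1 with Arg82, represses synthesis genes and activates breakdown genes, while Gcn4 activates synthesis genes when amino acids are short.

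The deposited values are log2 signals, and a difference below is the mean log2 signal of nab2-1 minus that of the wild type, with its standard error and n = 3 arrays per strain. A gene was called where the Benjamini-Hochberg adjusted p of limma, a linear model fitted over all 5449 genes, was under 0.05. The call is common in these data: 67.4% of all tested genes were called, 37.2% as lower in nab2-1 and 30.2% as higher. Chromosomes I, XI and XVI were shifted upward as a whole in the mutant, with median differences of 0.74, 0.77 and 0.75. Over the 4642 genes of the other chromosomes the median was -0.11, 43.2% were lower and 19.8% higher. NAB2 itself was at 13.71 ± 0.12 (SD) in the mutant and at 12.36 ± 0.07 in the wild type, and whether its probes cover the nab2-1 lesion is not stated. Array medians over the tested genes ran from 10.27 to 10.30. Over all probe sets, which include those of another yeast and controls, the medians were higher in the mutant. They ran from 7.09 to 7.14 on the nab2-1 arrays and from 6.81 to 6.88 on the wild type arrays, and the part of this shift in the results was not tested. For 7 control genes of the array, the signal of the 3' probe set exceeded that of the 5' probe set by 0.02 to 0.25 more in nab2-1 than in the wild type, and the arrays of the strains overlapped for each of the 7. The part of this in the results was not tested. W303-1A is known as a strain of mating type a, but the 4 alpha-specific genes read from 12.15 to 14.15 over the 6 arrays, and the 7 a-specific genes from 6.37 to 10.16. Probe sets cannot be ranked against each other by signal, and the mating type of the samples is not given in the labels. All 7 a-specific genes were higher in nab2-1, by a median of 1.53 as deposited, 1.25 relative to the median of their chromosome on each array and 1.81 when each array was scaled to spiked control RNAs, with 7 of 7 called on each scale. MFA1, an a-factor gene, rose by 1.98 ± 0.09 (adjusted p = 2.6e-06, limma). Of the alpha-specific genes 3 were higher and 1 lower as deposited, with a median of 0.32, and 1 higher and 2 lower relative to chromosome medians. The part of these marker differences in the results was not tested.

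As deposited, all 7 synthesis members were lower in nab2-1, CAN1 was lower and CAR1 slightly higher, but ARG3 and ARG7 were not below 0 when scaled to spiked controls, and CAR1 was lower relative to its chromosome. All 9 thus passed the threshold, against the 67.4% over all genes, and on none did the arrays of the strains overlap, which held for 73.9% of all tested genes. The median difference of the 9 genes was -0.30, against -0.05 over all genes. An array signal does not separate less RNA per cell from fewer cells that express the gene. The 2 largest falls among the synthesis genes were those of the final steps, ARG1 and ARG4, and the others were small.

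**Figure D1:**
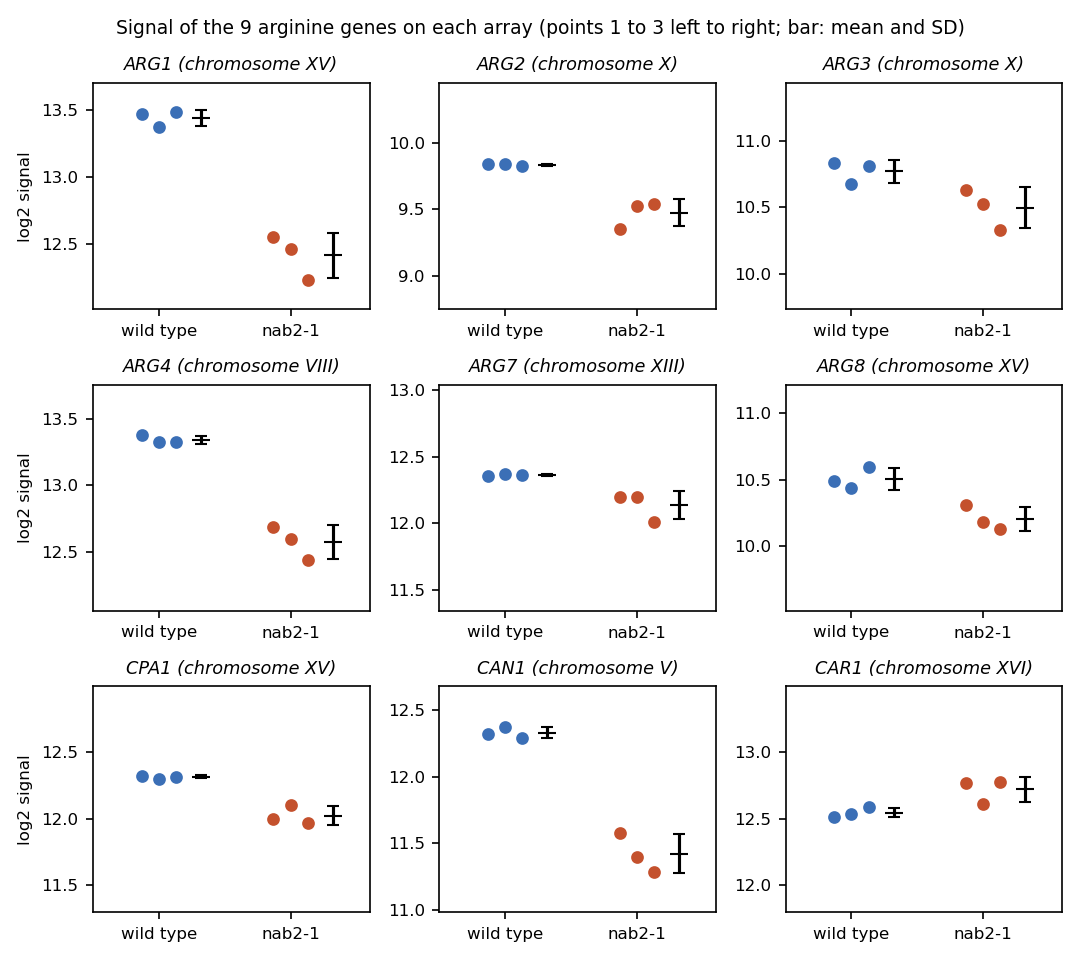
Log2 signal of the 9 arginine genes on each array, wild type in blue and nab2-1 in orange, with array 1 to 3 from left to right and the mean with SD beside them. Every panel spans the same range. ARG1, ARG4 and CAN1 show the widest gaps, from 0.64 to 0.82 between the nearest arrays, and CAR1 alone is higher in nab2-1.

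ARG1 encodes argininosuccinate synthetase, which joins citrulline to aspartate. Its log2 signal was 13.47, 13.37 and 13.49 on wild type arrays 1 to 3, and 12.55, 12.46 and 12.22 on the nab2-1 arrays. The strains were well apart, with 0.82 between the lowest wild type and the highest nab2-1 array. The difference was -1.03 ± 0.09 (adjusted p = 3.6e-05, limma), or a 2.045-fold fall. This lay at percentile 3.56 of the differences of all tested genes.

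ARG4 encodes argininosuccinate lyase, the enzyme that releases arginine in the last step. The array values were 13.38, 13.33 and 13.32 in the wild type and 12.69, 12.60 and 12.44 in nab2-1. The wild type arrays lay close together and the mutant arrays were all at least 0.64 lower. ARG4 fell by 0.77 ± 0.07 (adjusted p = 5e-05, limma), or 1.70-fold.

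The enzymes that feed these steps changed less. ARG3 encodes ornithine carbamoyltransferase, which makes citrulline. It read 10.84, 10.67 and 10.81 in the wild type and 10.63, 10.53 and 10.33 in nab2-1. The nearest arrays of the strains were only 0.04 apart. The difference was -0.27 ± 0.09 (adjusted p = 0.0242, limma), and it missed the threshold in 4 of the 6 fits that left out 1 array, at adjusted p = 0.0501 without nab2-1 replicate 2, 0.0596 without nab2-1 replicate 3, 0.0798 without wild type replicate 1 and 0.0706 without wild type replicate 3.

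CPA1 encodes the small subunit of the carbamoyl phosphate synthetase of the arginine pathway. It read 12.32, 12.30 and 12.32 in the wild type and 12.00, 12.10 and 11.97 in nab2-1, without overlap. The difference was -0.29 ± 0.05 (adjusted p = 0.0016, limma). The gene next to CPA1 in the reference order is YOR302W, the short reading frame in the leader of the CPA1 mRNA that encodes the arginine attenuator peptide. In the presence of arginine this peptide stalls ribosomes ahead of the CPA1 reading frame. The YOR302W probe set read 11.58, 11.53 and 11.62 in the wild type and 10.94, 10.74 and 10.73 in nab2-1, and its difference of -0.77 ± 0.07 (adjusted p = 4.4e-05, limma) was larger in size than that of CPA1. Relative to the chromosome median YOR302W was at -0.69 (adjusted p = 0.00011, limma) and CPA1 at -0.21. Scaled to the spiked controls they were at -0.50 (adjusted p = 0.0023, limma) and -0.02. The probe sets of YOR302W and CPA1 thus differ on the size of the fall of this mRNA, and the cause was not tested.

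Of the mitochondrial steps, ARG2 encodes acetylglutamate synthase, which starts the pathway. It read 9.84, 9.84 and 9.82 in the wild type and 9.36, 9.52 and 9.54 in nab2-1, so that the mutant arrays lay below the tightly grouped wild type ones. ARG2 fell by 0.36 ± 0.06 (adjusted p = 0.0012, limma).

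ARG8 encodes acetylornithine aminotransferase, which makes acetylornithine. It read 10.49, 10.43 and 10.60 in the wild type and 10.31, 10.18 and 10.13 in nab2-1, a difference of -0.30 ± 0.07 (adjusted p = 0.0052, limma). Here the nearest arrays were 0.13 apart. ARG7 encodes the ornithine acetyltransferase that releases ornithine and returns the acetyl group to glutamate. Its signal was 12.35, 12.37 and 12.36 in the wild type and 12.20, 12.19 and 12.01 in nab2-1, a difference of -0.23 ± 0.06 (adjusted p = 0.0133, limma). The wild type arrays hardly varied and the fall was the smallest of the 7.

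The unequal size of the falls was compared within arrays. The ARG1 signal minus the ARG7 signal was 1.12, 1.00 and 1.13 in the wild type and 0.35, 0.27 and 0.21 in nab2-1, a change of -0.805. ARG4 minus ARG7 changed by -0.54 and ARG1 minus ARG3 by -0.76. In each pair the strains did not overlap and the SDs were at most 0.07. These pairs, and that of CAR1 and CAR2 below, were chosen after their values were seen. The exact permutation test (two-sided) gave p = 0.1 for each of the 4 pairs, as deposited and relative to chromosome medians, with the same value after adjustment over them, which is the smallest p that 3 arrays against 3 can give.

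Most members shared an order among the nab2-1 arrays. Array 3 of nab2-1 was the lowest of its strain for 7 of the 9 genes (ARG1, ARG3, ARG4, ARG7, ARG8, CPA1 and CAN1), and array 1 was the highest for 6. The share of all tested genes with this order was not computed, so the order is not shown to be particular to the members. The median deviation of the synthesis members from the strain mean was -0.12 on array 3 and 0.10 on array 1, while over all tested genes it was 0.0057 and -0.0077. The wild type arrays showed no such order, with median deviations between -0.015 and 0.01. Over the 9 genes the median SD was 0.11 for nab2-1 arrays and 0.035 for wild type arrays, compared with 0.078 and 0.065 over all tested genes. The nab2-1 arrays also differed in the 3' minus 5' signal, which was lowest on array 1 for each of the control genes. For SPT15 it was 1.23, 1.53 and 1.47 on nab2-1 arrays 1 to 3. The part of this in the order of the members was not tested.

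CAN1 encodes the arginine permease of the plasma membrane. W303 strains are known to carry a can1 loss-of-function allele. It read 12.32, 12.38 and 12.30 in the wild type and 11.58, 11.40 and 11.29 in nab2-1. The strains were 0.72 apart at their nearest arrays. CAN1 fell by 0.91 ± 0.08 (adjusted p = 3.7e-05, limma), or 1.88-fold, at percentile 5.16 of all genes.

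CAR1 encodes arginase, which splits arginine into ornithine and urea. It read 12.52, 12.54 and 12.58 in the wild type and 12.77, 12.61 and 12.78 in nab2-1. All mutant arrays were higher, by as little as 0.03 for array 2. The difference of 0.17 ± 0.06 (adjusted p = 0.0329, limma) was not past the threshold in 4 of the 6 fits that left out 1 array, with adjusted p = 0.0772 without nab2-1 replicate 1, 0.103 without nab2-1 replicate 3, 0.0996 without wild type replicate 1 and 0.0808 without wild type replicate 2.

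CAR1 is the only member on a shifted chromosome, XVI, where 90.6% of 424 tested genes were higher in nab2-1. The direction of its difference therefore depended on the reference level. To set each gene against its chromosome, the median signal of the tested genes of that chromosome was subtracted on each array. CAR1 then stood 2.39, 2.32 and 2.48 above the median of chromosome XVI in the wild type and 1.72, 1.59 and 1.75 above it in nab2-1. The strains did not overlap and the order was turned. The relative difference was -0.71 ± 0.07 (adjusted p = 6e-05, limma), a 1.63-fold fall against the chromosome. Relative to the 41 nearest genes CAR1 was at -0.91 by their median signal and at -0.52 by their median deviation. Within chromosome XVI the difference of CAR1 lay at percentile 9.20. The copy number of the chromosome was not measured in these data.

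Relative to chromosome medians, 6 of the 9 members were lower and 0 higher, against 30.6% and 31.4% of all tested genes. ARG1 was at -0.95 ± 0.09 (adjusted p = 5.2e-05, limma), CAN1 at -0.81 ± 0.08 (adjusted p = 7.7e-05) and ARG4 at -0.59 ± 0.09 (adjusted p = 0.00056). These 3 falls and that of CAR1 were the large ones on this scale. ARG8 at -0.22 ± 0.07 (adjusted p = 0.027) and CPA1 at -0.21 ± 0.05 (adjusted p = 0.0085) also passed. The ARG8 call was lost in 4 of the 6 fits with 1 array left out, at adjusted p = 0.0848 without nab2-1 replicate 2, 0.0881 without nab2-1 replicate 3, 0.0611 without wild type replicate 1 and 0.09 without wild type replicate 3. Relative to the 41 nearest genes, by their median signal, ARG8 was at 0.25 and CPA1 at 0.11. ARG2 at -0.15 ± 0.07 (adjusted p = 0.102), ARG7 at -0.09 ± 0.07 (adjusted p = 0.273) and ARG3 at -0.06 ± 0.08 (adjusted p = 0.519) did not, and for ARG3 and ARG7 the arrays of the strains overlapped. An alternative chosen after the data were seen took the chromosome median of each gene's deviation from its own mean over the 6 arrays, in place of the median signal. With it 7 of the 9 were lower, against 31.5% of all genes, and ARG2 at -0.21 (adjusted p = 0.0174) was added. CAR1 was then at -0.57 (adjusted p = 0.00014).

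**Figure D2:**
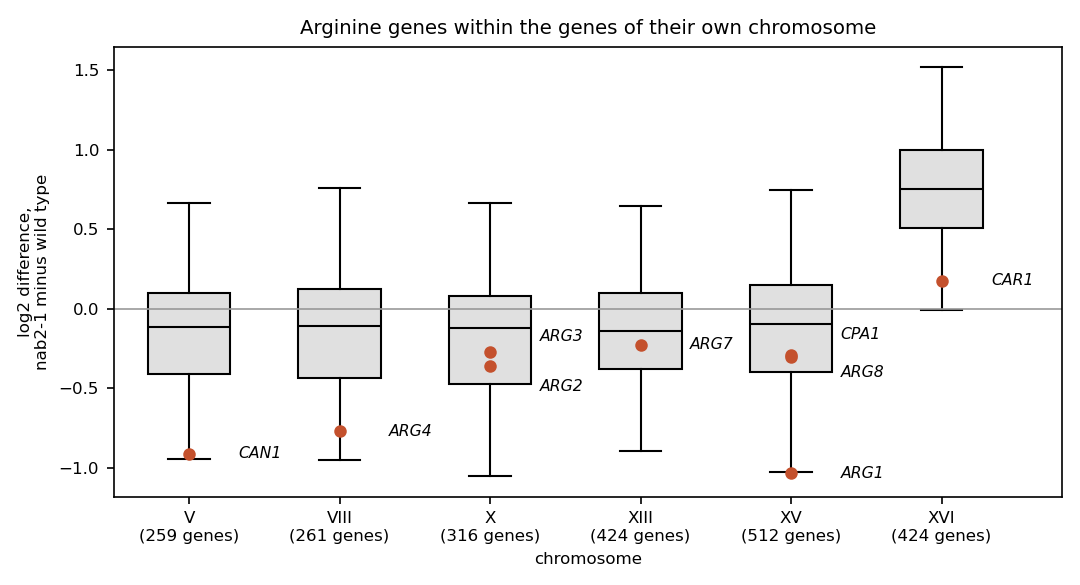
Differences of the 9 arginine genes (orange points, log2) within those of all tested genes of the same chromosome; boxes give the quartiles and median and whiskers the 5th and 95th percentiles. CAR1 lies near the lower whisker of chromosome XVI at percentile 9.20, although its own difference is above 0, and ARG1, CAN1 and ARG4 lie at percentiles 4.88, 5.79 and 8.81 of their chromosomes.

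The reference level also set how many of the small falls were called. Scaled to 36 probe sets of spiked Bacillus controls, 3 members were lower (ARG1, ARG4 and CAN1) and CAR1 was higher, against 11.4% and 39.1% of all genes. The scaling moved the median of all genes from -0.05 to 0.22. ARG1 was then at -0.76 (adjusted p = 1.8e-06, limma), CAN1 at -0.64 (adjusted p = 7.8e-05), ARG4 at -0.49 (adjusted p = 0.0026) and CAR1 at 0.45 (adjusted p = 0.0068). The other 5 synthesis members lay between -0.09 and 0.05. CPA1 is among these, while the YOR302W probe set, in the leader of its mRNA, was at -0.50 (adjusted p = 0.0023, limma). The scaling shifts all genes of an array by the same amount, so an error in it is shared by all genes. The adjusted p-values on this scale do not fully cover that shared error and can be too small. The mean of the spiked controls ran from 7.22 to 7.59 on the wild type arrays and from 7.06 to 7.16 on the nab2-1 arrays, and the amounts added are not given in the sources used here.

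**Figure D3:**
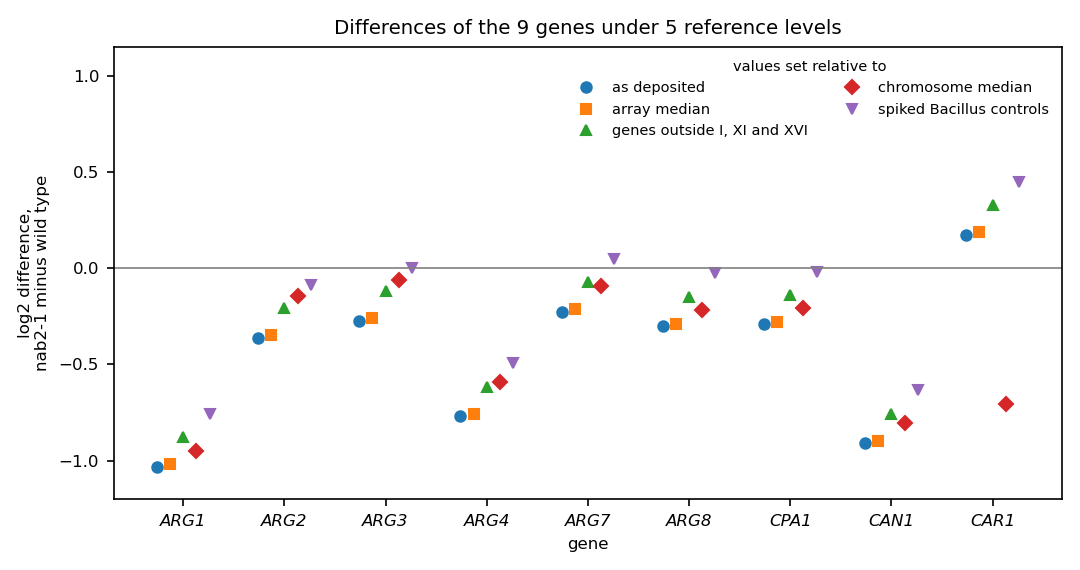
Difference of each of the 9 genes (log2, nab2-1 minus wild type) with the values as deposited or set relative to the array median, the genes outside chromosomes I, XI and XVI, the chromosome median or the spiked controls. ARG1, ARG4 and CAN1 stay below -0.4 under each of the 5, the other synthesis genes lie nearer to 0 with the spiked controls, and of the 5 values drawn for CAR1 that relative to its chromosome median is the one below 0.

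The other measured genes of the pathway were described by lists that were written with earlier results of these data known. For arginine synthesis 8 genes were measured, and ARG5,6 was not analysed here. The gene beside the 7 members is ORT1, which encodes the mitochondrial ornithine exporter. It read 10.12, 9.96 and 10.12 in the wild type and 9.91, 9.92 and 9.72 in nab2-1, a difference of -0.22 ± 0.08 (adjusted p = 0.0358, limma). The gap between the strains was small, and relative to its chromosome median ORT1 was at -0.13 (adjusted p = 0.15). Its call was also lost under quantile, median and cyclic loess normalization (adjusted p = 0.0613, 0.0506 and 0.0796) and in 3 of the 6 fits with 1 array left out, without nab2-1 replicate 3 (0.103), wild type replicate 1 (0.109) or wild type replicate 3 (0.106).

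As deposited, genes of breakdown and proline use moved in both directions. CAR2 encodes ornithine aminotransferase, which acts after arginase. Its signal was 11.96, 12.03 and 11.94 in the wild type and 10.24, 10.28 and 10.45 in nab2-1. The strains were far apart, and CAR2 fell by 1.65 ± 0.07 (adjusted p = 1.8e-06, limma), or 3.15-fold, a larger fall than that of any of the 9 members. Relative to its chromosome median it was at -1.51 (adjusted p = 2.1e-06), and with the spiked controls as reference at -1.38. The adjusted p on that last scale (5e-19, limma) carries the limit given above for the spiked controls. The CAR1 signal minus the CAR2 signal was 0.56, 0.50 and 0.65 in the wild type and 2.53, 2.33 and 2.33 in nab2-1, a change of 1.83 with p = 0.1 in the exact permutation test. With each gene set against its chromosome median the change was 0.80 (p = 0.1, exact permutation test). Of the steps that lead to and from proline, PRO3, which makes proline, fell by 0.41 ± 0.05 (adjusted p = 0.00021) and PUT2, which makes glutamate, by 0.39 ± 0.06 (adjusted p = 0.0011). PUT1, the proline oxidase gene, rose by 0.92 ± 0.11 (adjusted p = 0.00025). In the list of 5 genes 3 were thus lower and 2 higher, with a median of -0.39. The counts were 4 lower and 1 higher relative to chromosome medians, where CAR1 turned, and with the spiked controls 1 was lower and 2 higher.

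**Figure D4:**
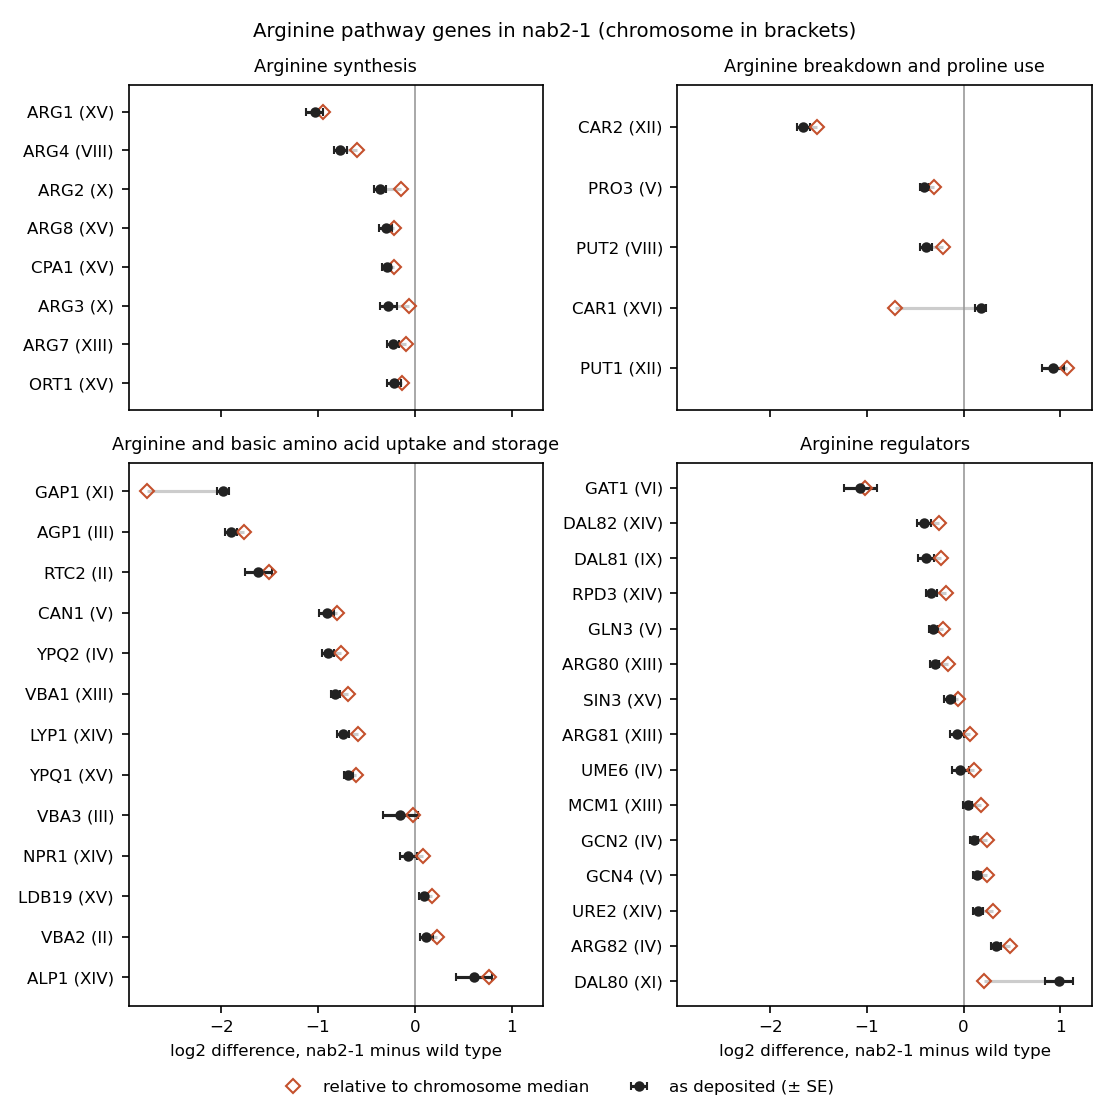
Differences of the measured genes of 4 arginine lists (log2, nab2-1 minus wild type). Black points are the values as deposited with SE, open orange diamonds those relative to the chromosome median, and the chromosome is in brackets. CAR1, GAP1 and DAL80, on chromosomes XVI and XI, move most between the scales, and CAR2, GAP1, AGP1 and RTC2 lie below -1.5 on both.

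Of 13 genes of the uptake and storage of arginine and other basic amino acids, 8 were lower and 1 higher, with a median of -0.74. On the chromosome scale the counts were 8 and 3. Besides CAN1, the general amino acid permease gene GAP1 read 11.28, 11.31 and 11.43 in the wild type and 9.33, 9.29 and 9.45 in nab2-1, and fell by 1.98 ± 0.06 (adjusted p = 9.4e-07, limma). It lies on the raised chromosome XI, and relative to that chromosome it was at -2.76. AGP1, a permease of broad specificity, fell by 1.90 ± 0.06 (adjusted p = 9.4e-07), and the lysine permease gene LYP1 by 0.74 ± 0.06 (adjusted p = 3.4e-05). The falls thus covered permeases of different ranges. ALP1, which encodes a second arginine permease, was the exception. It read 6.81, 7.07 and 6.65 in the wild type and 7.03, 7.58 and 7.75 in nab2-1, with a difference of 0.61 ± 0.19 (adjusted p = 0.0236), although the arrays of the strains overlapped. Among genes of vacuolar transport of basic amino acids, RTC2 fell by 1.61 ± 0.14, YPQ2 by 0.90 ± 0.06, VBA1 by 0.82 ± 0.05 and YPQ1 by 0.69 ± 0.05. VBA2 was at 0.12 ± 0.07 (adjusted p = 0.154) and VBA3 at -0.15 ± 0.18 (adjusted p = 0.49).

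The regulators of the pathway changed in both directions. Of 15 listed, 6 were lower and 4 higher, with a median of -0.07. The counts were 6 and 5 relative to chromosome medians, and 1 and 5 with the spiked controls. Of the ArgR/Mcm1 genes, ARG80 fell by 0.30 ± 0.05 (adjusted p = 0.00093, limma) and ARG82, which encodes an inositol polyphosphate kinase, rose by 0.34 ± 0.05 (adjusted p = 0.0011). Relative to its chromosome median ARG80 was at -0.16 (adjusted p = 0.0333, limma), with adjusted p up to 0.12 when 1 array was left out. Scaled to the spiked controls ARG80 was at -0.02 (adjusted p = 0.908, limma). ARG82 was at 0.47 and 0.61 on these scales. ARG81, the arginine sensor gene, was at -0.07 ± 0.07 (adjusted p = 0.396) and MCM1 at 0.04 ± 0.05 (adjusted p = 0.479). GCN4 read 13.91, 13.92 and 13.95 in the wild type and 14.10, 14.04 and 14.05 in nab2-1, a difference of 0.14 ± 0.04 (adjusted p = 0.026). That call was lost in 4 of the 6 fits that left out 1 array, at adjusted p = 0.0511 without nab2-1 replicate 1, 0.0563 without nab2-1 replicate 3, 0.0848 without wild type replicate 1 and 0.0681 without wild type replicate 2. Gcn4 is controlled mainly at translation, which arrays do not measure. UME6, SIN3 and RPD3 encode a repressor complex known to act on CAR1. UME6 was at -0.03 ± 0.09 (adjusted p = 0.751), SIN3 at -0.15 ± 0.06 (adjusted p = 0.058), and RPD3 fell by 0.33 ± 0.05 (adjusted p = 0.001). Among factors of nitrogen control, which act on GAP1 and CAR1, GAT1 fell by 1.07 ± 0.17 (adjusted p = 0.0011) and GLN3 by 0.31 ± 0.05 (adjusted p = 0.00066). DAL80, on chromosome XI, was at 0.99 ± 0.15 (adjusted p = 0.00067) but at 0.21 relative to its chromosome (adjusted p = 0.212).

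Genes of enzymes and mitochondrial carriers that supply or drain the pathway were mixed, with 3 of 12 lower and 7 higher as deposited, 6 lower and 3 higher relative to chromosome medians, and 2 lower and 7 higher with the spiked controls. GDH1, which makes glutamate, the precursor of arginine, fell by 1.08 ± 0.08 (adjusted p = 2e-05, limma). URA2, whose enzyme makes carbamoyl phosphate for pyrimidines, rose by 0.33 ± 0.05 (adjusted p = 0.00099). SPE1, the ornithine decarboxylase gene of polyamine synthesis, was at 0.67 ± 0.07 (adjusted p = 8.2e-05), but it lies on chromosome XI and was at -0.11 relative to it (adjusted p = 0.232).

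Other synthesis pathways known as targets of Gcn4 were set beside the arginine genes. As deposited, the median difference was -0.27 over 9 genes of lysine synthesis, -0.23 over 6 of histidine synthesis and -0.20 over 9 of aromatic amino acid synthesis, compared with -0.30 over the 7 arginine synthesis members. In these lists 5, 6 and 6 genes were lower and 0, 0 and 2 higher. The higher ones were ARO7 and TRP3, on chromosomes XVI and XI. Set against chromosome medians, they were -0.14, -0.10 and -0.06, and -0.21 for the arginine members. With the spiked controls they were 0.0074, 0.0472 and 0.0738, and -0.03 for the arginine members. No difference between these lists was tested.

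The immediate neighbours of the 9 members in the reference gene order were set beside them. Of 18 neighbours, 17 were measured, of which 9 were lower and 5 higher, with a median of -0.21. Over all tested genes 37.2% were lower and 30.2% higher. Relative to chromosome medians 7 were lower and 8 higher, with a median of -0.11, against 30.6% and 31.4% of all tested genes. YOR302W, counted as lower on both scales, lies within the CPA1 mRNA and is not a separate neighbour in that sense. ARG4 lies between YSC83, at 0.12 ± 0.05 (adjusted p = 0.0743, limma), and DED81, an asparaginyl-tRNA synthetase gene that fell by 0.37 ± 0.05 (adjusted p = 0.00041). Neither fell as far as ARG4. CAN1 lies beside AVT2, a gene of the vacuolar amino acid transporter family, which fell by 1.12 ± 0.08 (adjusted p = 1.7e-05), and NPR2, which fell by 0.21 ± 0.05 (adjusted p = 0.0052). Of the neighbours of CAR1, GDE1, a glycerophosphocholine phosphodiesterase gene, rose by 1.88 ± 0.05 (adjusted p = 5.5e-07) and was at 1.00 relative to chromosome XVI, where CAR1 was at -0.71. Of the neighbours of ARG1, GPD2 was at -1.28 ± 0.42 (adjusted p = 0.0279) with an SD of 0.88 in the wild type, and YOL057W was at -0.42 ± 0.12 (adjusted p = 0.0156).

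The genes whose array values followed ARG1 most closely were taken by the root-mean-square distance, over the 6 arrays, between deviations from the wild type mean. The nearest 5 outside the members were ALG7, ODC2, TMT1, NUS1 and YGR026W, at distances from 0.0604 to 0.0635. ODC2, a mitochondrial 2-oxodicarboxylate carrier gene, belongs to the supply list above and had a difference of -0.98 ± 0.07. The likeness is a description of these 6 arrays.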

How the data were processed

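Total RNA (1 µg per sample) of 3 nab2-1 and 3 wild type samples had been hybridised, as biotin-labelled cRNA, to Affymetrix yeast arrays, 1 per sample. The deposited table holds log2 signals of 10928 probe sets, normalized by the authors. The submitters' processing notes name GCOS, RMA and limma, with neither versions nor order, and a genome build was not found in those notes. The platform annotation gave 5498 probe sets exactly 1 gene of budding yeast and 1 probe set several genes. Of the others, 1746 were for another yeast, 213 were controls or reporters and 3470 carried no gene name. Symbols were updated through the RefSeq gene table of assembly R64 by gene ID, and chromosomes and gene order, but no coordinates, were taken from it. The probe set with the highest mean was used for each of 5449 genes.

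The strains were tested in R 4.3.3 using lmFit and eBayes of limma 3.58.1 (two-sided, Benjamini-Hochberg over all 5449 genes, threshold 0.05) on the values as deposited and after subtracting the median of the chromosome on each array. The fit was tested on simulated data. Depth has no counterpart on arrays, and the number of arrays limits the precision. The main fits did not pair the samples by replicate number. Correlations of the deviations of same-numbered arrays were -0.19, 0.19 and -0.14, and those of other numbers ran from -0.24 to 0.27. With 3 arrays per strain these cannot show whether the samples were paired. The members and all gene lists were chosen with earlier results of these data known. Named genes are the 9 members, list genes past the threshold or with a role in arginine control, gene neighbours, and the 5 genes nearest to ARG1. Of the strain markers, NAB2 differed by 1.35 and HIS3 by -0.39, LEU2, ADE2 and URA3 were not called, and TRP1 was not analysed here. Alternatives were other normalizations and reference levels, variance models, the replicate block, filters, thresholds and each array left out. Figures were drawn with matplotlib 3.10.9.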

Additional observations from a re-analysis of the deposited data

How the results depend on the processing

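Of the 9 members, 9 were called under quantile, median and cyclic loess normalization, trend, robust and array-weight variance models, without the dimmest 25% of genes, with every probe set or the mean of probe sets, and with the replicate block, which changed the call of no member. Under these settings 3514 to 3893 of all genes were called, or 2848 once the dimmest 25% were left out. Relative to chromosome medians the replicate block left 6 members called, as without it, and 3217 of all genes. It ended the calls of ORT1 (adjusted p = 0.0679, limma) and GCN4 (0.0645). The count of members was 4 when scaled to the spiked controls, 6 when scaled to the genes outside chromosomes I, XI and XVI, 3 with a minimum of 1.5-fold, 6 at an adjusted p under 0.01 (without ARG3, ARG7 and CAR1), and 7 to 8 with 1 array left out. The matching counts over all genes were 2755 with the spiked controls and 3712 with the genes outside the 3 chromosomes. At an adjusted p under 0.01 the all-gene count was 2992, and with 1 array left out it ran from 3337 to 3693. The main fit called 3672. On the chromosome scale the count of members, 6, became 4 without the dimmest 25% of genes or with a minimum of 1.5-fold. It became 5 at an adjusted p under 0.01, and 5 to 6 with 1 array left out. Over all genes the counts on that scale were 2641 without the dimmest 25% and 2523 at an adjusted p under 0.01. With 1 array left out they ran from 2954 to 3365. The 1.5-fold minimum took the count over all genes from 3672 to 1490, and, on the chromosome scale, from 3380 to 1026. Among called genes 44.8% were higher, compared with 77.4% scaled to the spiked controls and 63.7% scaled to the genes outside the 3 chromosomes. The spiked controls added 0.27 to every difference. Among called genes named in the report this turned ARG3 (2.03e-05), ARG7 (0.0475), ORT1 (0.0587) and NPR2 (0.0630). Among named genes not called, the same shift turned ARG81 (0.21), UME6 (0.24), SIN3 (0.13), VBA3 (0.13) and URA3 (0.18). Relative to chromosome medians, CAR1 (-0.71), SPE1 (-0.11), ARO7 (-0.03) and TRP3 (-0.07) turned among called genes. Those not called that turned were ARG81 (0.07), UME6 (0.11) and URA3 (0.0078). Relative to the median signal of the 41 nearest genes ARG8 was at 0.25 (adjusted p = 0.0136, limma) and CPA1 at 0.11 (adjusted p = 0.217), and relative to the median deviation of those genes, an alternative chosen after seeing the data, CPA1 was at 0.0538 (adjusted p = 0.467) and ARG8 at -0.28. The cause was not tested. Relative to chromosome medians, ARG3 lay between -0.12 and 0.0046 with 1 array left out. Without the dimmest 25% of genes, which changes the chromosome medians, ARG8 was at -0.10 (adjusted p = 0.24) and CPA1 at -0.09 (adjusted p = 0.195). ARG1, ARG4 and CAN1 kept direction and call in all 21 alternatives as deposited and in the 20 relative to chromosome medians that could change them. The other 3, median centring, spiked controls and the genes outside the 3 chromosomes, shift each array by a constant that the chromosome median removes. The pair changes relative to chromosome medians, an alternative chosen after seeing the data, kept their direction.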
